A study of Mus musculus with 200 samples.

Results

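Within the wild-type GFPhi medullary thymic epithelial cells of this single-cell data set, cells with a brighter Aire reporter were set against cells with a dimmer one. GFPhi is the sort gate for high green fluorescence, and GFP intensity was recorded per well by the cytometer that sorted the cells. Of 200 cells in the series, 61 were wild-type GFPhi cells. On each of 2 sort dates they were split at the median GFP intensity of that date, which gave 30 brighter cells (11 and 19 on the first and second date) and 31 dimmer cells (12 and 19). The split used the cytometer value alone, and no transcript entered it.

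The cells came from female B6xNOD mice aged 5 weeks, and their genotype is given as WT; AireGFP. All mice of the series, wild-type or Aire knockout, carried the Aire-GFP transgene, and GFP fluorescence was taken as the reading of the Aire reporter. Cells were sorted from digested thymus as CD45-,Ly51-,MHCII+,GFPhi, one to a well. Their libraries were made with primers of either of 2 kinds, named ls and umi, used for 22 and 8 of the brighter and 25 and 6 of the dimmer cells. The labels name no animal, so brighter and dimmer cells counted as 1 sample each, no test was made, and intervals cover counting error only. The other cells used for placing the values were 48 knockout GFPhi cells and 39 wild-type GFPlo cells of the same strain, sex and age.

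Medullary thymic epithelial cells transcribe genes that are otherwise specific to other organs and show their products to developing T cells, which removes or diverts self-reactive cells. Aire is a nuclear protein that drives many of these tissue-restricted genes in mature cells with high MHC class II, and its loss causes autoimmunity in many organs. Cells enter this state after RANK and CD40 signals through NF-kB, and an Aire-driven reporter is used to sort them.

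The GFP values were well apart at the ends and close at the split. GFP intensity was 21347 to 88538 units in brighter cells with a median of 29718.5, against 8169 to 22563 units in dimmer cells with a median of 17210. On the first date the dimmest of the brighter cells read 22649 and the brightest of the dimmer cells 22563. On the second date those readings were 21347 and 20558.

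The markers Aire, Csn2 and Fezf2 were detected in most brighter and most dimmer cells. Wild-type GFPlo cells also had them, at 244, 769 and 355 CPM, so detection alone does not tell the sort gates apart. Aire had a count in 28 of 30 brighter and 29 of 31 dimmer cells, Csn2 in 30 and 30, and Fezf2 in 28 and 27. Epcam, the surface adhesion molecule of epithelial cells, had a count in 26 brighter and 26 dimmer cells.

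Several libraries stood apart and bear on the sums over cells. Brighter cells held 1258193 counts in all and dimmer cells 2209916, with medians of 28861 and 41242 counts per cell in brighter and dimmer cells. These medians were 30632 and 24733.5 on the first date and 27090 and 53922 on the second. Counts per cell had Spearman correlations with GFP intensity of 0.11 and -0.38 on the dates. More than 100000 counts were found in 1 brighter and 8 dimmer cells. The first date supplied 44.1% of the brighter and 27.7% of the dimmer counts. A leukocyte-marked cell is one with more counts of a list of leukocyte genes than of a list of epithelial genes, and there were 9 such cells among the brighter and 13 among the dimmer. They held 26.9% of the brighter and 59.6% of the dimmer counts. The mark does not name a cell type and can rest on few counts. A dimmer cell of the first date was marked from 6 leukocyte and 1 epithelial counts. Among brighter cells Epcam was at 375 CPM in marked and 285 CPM in other cells, and among dimmer cells at 95.7 and 397 CPM. Among the dimmer cells, 3 of the second date had over 1000 counts of Igj, the joining chain of secreted antibodies, and held 35.7% of the dimmer counts, whereas 0 brighter cells did. The cells lay in 12 library pools, of which 3 held brighter cells only.

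Aire mRNA was higher in brighter cells when all cells were counted. Per cell, Aire ran from 0 to 1817 counts per 1000000 counts (CPM) with a median of 725 CPM in brighter cells, against 0 to 1503 CPM with a median of 343 CPM in dimmer cells. The ranges overlapped over almost their whole length. Summed over cells, the Aire level was 774 CPM in brighter cells and 401 CPM in dimmer cells, a ratio of 1.93 (95% interval 1.76 to 2.11). Aire lies on chromosome 10 at 78030022 to 78043610, minus strand (GRCm38). The ratio was 1.32 (1.14 to 1.54) on the first date and 2.35 (2.09 to 2.65) on the second, so with all cells the direction was shared by both dates. Without leukocyte-marked cells and with the dates pooled, Aire levels were 734 CPM in brighter and 593 CPM in dimmer cells. That is a log2 ratio of 0.31 beside 0.95 with all cells. On the first date the remaining cells showed no rise of Aire with GFP intensity, at a Spearman correlation of -0.07 over 15 cells. Leukocyte-marked cells had 883 CPM of Aire among the brighter and 272 CPM among the dimmer, and how far they set the pooled ratio was not tested. After each cell was thinned to 10000 counts, Aire was found in 96.3% of 27 brighter cells and 85.7% of 28 dimmer cells.

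The Aire level also followed reporter brightness in finer steps. Split into tertiles of GFP within each date, the cells had summed Aire levels of 280 CPM in the lowest tertile (19 cells), 614 CPM in the middle (23 cells) and 921 CPM in the upper (19 cells). The order was the same on the first date, at 288, 713 and 792 CPM, and on the second date, at 279, 535 and 1008 CPM. With the dates pooled it held without leukocyte-marked cells, at 519, 662 and 829 CPM. Wild-type GFPlo cells had 244 CPM. Cell by cell the relation was loose: the Spearman rank correlation of Aire with GFP intensity was 0.26 over 23 cells of the first date and 0.24 over 38 cells of the second, where cells share pools and differ in depth. Among cells not marked as leukocyte it was -0.07 over 15 cells and 0.15 over 24 cells.

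**Figure D1:**
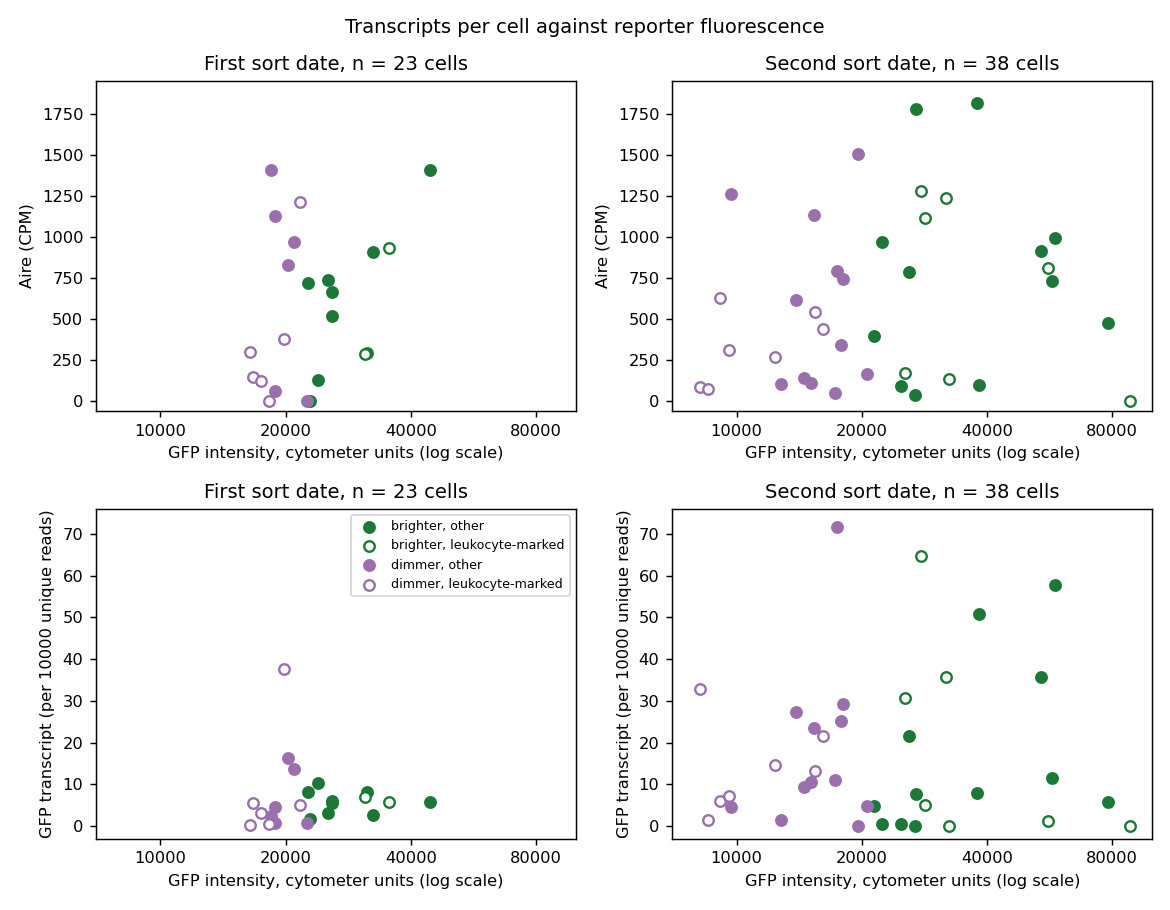
Aire mRNA in CPM (top) and the GFP transcript per 10000 unique reads (bottom) against GFP intensity in cytometer units on a log scale, for each sort date. Each point is 1 cell, green for brighter and purple for dimmer cells, open for leukocyte-marked cells. Aire medians are 725 CPM in brighter and 343 CPM in dimmer cells, with cells at or near 0 on both sides of the split.

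The GFP transcript was not higher in brighter cells on both dates. Its pooled level was 15.3 per 10000 unique reads in brighter cells and 16.1 in dimmer cells, a ratio of 0.948 (0.909 to 0.989). The dates went opposite ways: the ratio of its level in brighter over dimmer cells was 0.444 (0.399 to 0.494) on the first date and 1.24 on the second. A single dimmer cell of the first date, visible at 37.8 in the plot of transcripts against fluorescence, was above all other cells of that date, and the per-cell medians there were 5.79 in brighter and 3.96 in dimmer cells. Over all cells, the per-cell medians were 5.91 and 7.22 in brighter and dimmer cells. No GFP transcript was counted in 2 of 30 brighter and 0 of 31 dimmer cells. The cell with the highest GFP intensity, at 88538 units, was among them, with 0 Aire counts and 4676 counts in all. Spearman correlations of the GFP transcript with GFP intensity were 0.34 and -0.01 on the first and second date. Aire and the GFP transcript correlated at 0.29 and 0.24 across the same cells.

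Neither Csn2 nor Fezf2 showed a difference that held on both dates. Csn2 encodes the milk protein beta-casein. It had a per-cell median of 1385 CPM (range 53.2 to 17940) in brighter cells and 1262 CPM (0 to 7207) in dimmer cells. Its summed level was 2389 CPM in brighter and 1931 CPM in dimmer cells, but the log2 ratio was -0.57 on the first date and 0.92 on the second. In knockout GFPhi cells divided the same way, Csn2 had 3912 CPM in brighter and 2551 CPM in dimmer cells. Fezf2, a transcription factor that drives other tissue antigens apart from Aire, had a per-cell median of 559 CPM (0 to 3405) in brighter cells and 519 CPM (0 to 2978) in dimmer cells. Its summed level was 924 CPM and 821 CPM in brighter and dimmer cells, with log2 ratios of -0.28 and 0.19 on the dates.

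Over all 11737 genes with at least 20 counts, the median log2 ratio was -0.00252, and 22.6% were at least 2-fold higher and 24.9% at least 2-fold lower in brighter cells. On the first date alone 30.4% and 32.6% passed these limits, and on the second 24.2% and 24.2%. Of 6478 genes with at least 20 counts on each date, 8.06% were 2-fold higher on both dates and 6.31% 2-fold lower on both. Opposite 2-fold differences were about as frequent, at 5.6% and 7.1%. Across those genes the log2 ratios of the dates had a Spearman correlation of 0.03, and 51.1% of 8199 genes with at least 10 counts on each date went the same way. A gene's difference on one date thus said little about its difference on the other.

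**Figure D2:**
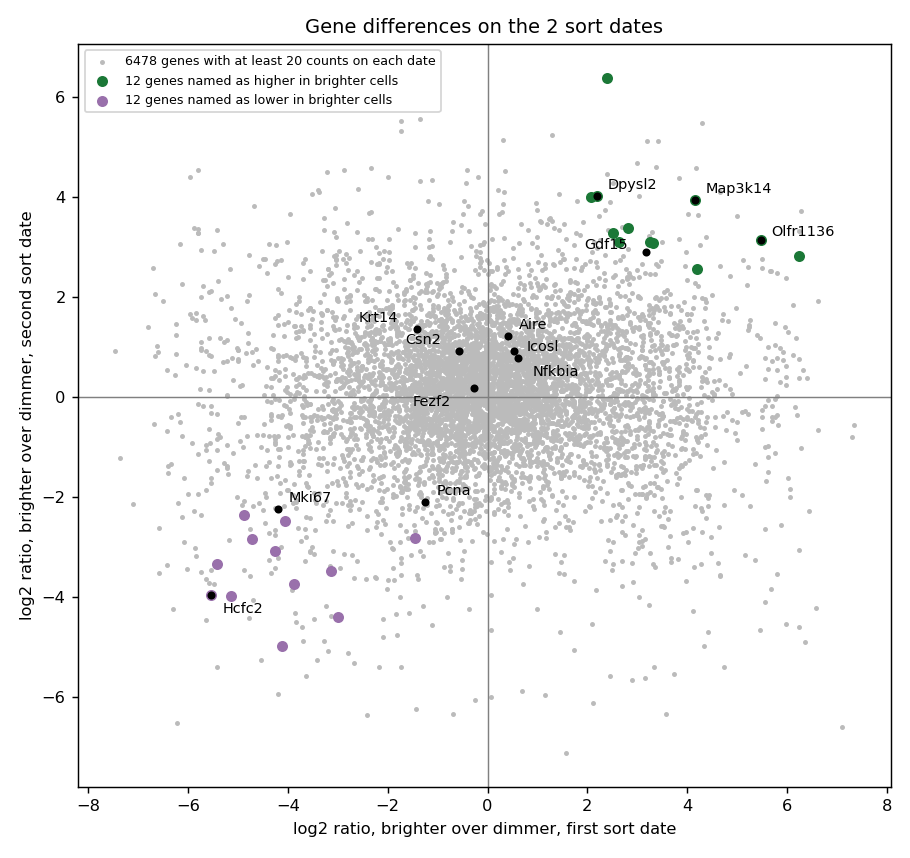
Log2 ratio of brighter over dimmer cells on the first sort date (horizontal) and the second (vertical) for 6478 genes, grey. Coloured points are the 12 genes named as higher and 12 as lower, chosen for the same direction on both dates, and labelled black points are genes described in the text. The cloud has no slope, with a Spearman correlation of 0.03.

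Genes higher in brighter cells on both dates, by the mean over cells and among cells that were not leukocyte-marked numbered 608, with counts in at least 8 brighter cells and at most 30% of the brighter counts in 1 cell. They are part of the 11737 genes with at least 20 counts. The matching limits gave 611 lower genes, so about as many genes passed in either direction. The leading 12 of the higher genes, ranked by the interval bound nearest to 1, were chosen for their difference, so their values are a description. Map3k14, the NIK kinase at the head of the noncanonical NF-kB pathway that RANK and CD40 use, had 61.2 CPM in brighter and 3.17 CPM in dimmer cells. It had counts in 10 brighter and 5 dimmer cells, its log2 ratio was 4.16 on the first date and 3.95 on the second, and its highest cell had 288 CPM among the brighter and 103 CPM among the dimmer. Dpysl2, a cytoskeletal protein known from axon growth, had 1410 CPM in brighter and 141 CPM in dimmer cells, with log2 ratios of 2.19 and 4.03 on the dates. Its per-cell medians were close, at 123 CPM and 108 CPM in brighter and dimmer cells, and the highest cells had 27464 CPM and 7079 CPM, so a few very high brighter cells carried its sum.

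Erbb2, a receptor tyrosine kinase of the EGF receptor family, was at 121 CPM in brighter and 14.5 CPM in dimmer cells. It had counts in 17 brighter and 11 dimmer cells, and log2 ratios of 2.51 and 3.30 on the dates. Rptor, the scaffold of the growth-controlling complex mTORC1, was at 47.7 CPM in brighter and 4.07 CPM in dimmer cells. Bag6, a chaperone of newly made membrane proteins, was at 97.8 CPM and 12.7 CPM, with counts in 17 brighter and 12 dimmer cells. The remaining 7 were Olfr1136, an odorant receptor, at 64.4 CPM in brighter and 2.72 CPM in dimmer cells, and Zfp600, Ugdh, Ttyh1, Chst1, Tmem11 and Zbtb33, whose log2 ratios ran from 2.92 (Tmem11) to 4.14 (Zfp600). Olfr1136 and Zfp600 belong to families of near-identical copies, so their counts are uncertain.

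The lower side had 611 eligible genes, and its leading 12 were mostly of low level. Hcfc2, a relative of a transcriptional coactivator of the cell cycle, had 2 counts in brighter and 112 in dimmer cells, a level 31.9-fold lower (8.62 to 267). Tm9sf1 stood at 6.36 CPM in brighter and 96.8 CPM in dimmer cells. Nckap1l, which belongs to an actin-regulating complex of blood cells, had 6.36 CPM in brighter and 79.6 CPM in dimmer cells, and 3.26 CPM and 73.9 CPM without leukocyte-marked cells. Nup107, a scaffold protein of the nuclear pore, was at 5.56 CPM and 64.7 CPM. Ppif, the mitochondrial cyclophilin D, was at 7.95 CPM and 76.9 CPM. Tomm5, of the mitochondrial import pore, had 0 counts in brighter and 44 in dimmer cells, the dimmer counts coming from 10 cells. The others were Rpap1, Slc39a6, Pak4, Slc51b, Epm2aip1 and Tada3, with log2 ratios from -3.19 (Slc51b) to -4.78 (Rpap1), of which Rpap1 and Pak4 had 1 count and Tada3 3 counts in brighter cells. Slc51b had 0 brighter counts and 1 dimmer count on the first date, too few to give a direction there. Of its 232 dimmer counts, 32 lay outside leukocyte-marked cells.

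Maturation genes of the NF-kB and costimulation list were mostly higher in brighter cells. Of 19 members with enough counts, 14 were higher and 5 lower, with a median log2 ratio of 0.63 beside -0.00252 over all genes. At the 2-fold limit, 5 members were higher and 3 lower, which is not far from the 22.6% and 24.9% of all genes. The summed level of the list was 6984 CPM in brighter and 4319 CPM in dimmer cells, a ratio of 1.62 (1.57 to 1.66), with 1.44 and 1.65 on the dates. Without leukocyte-marked cells it was 1.20, with 9 members higher and 10 lower. Per cell, the list ran from 2959 to 11313 CPM with a median of 6229 CPM in brighter cells, and from 1004 to 10216 CPM with a median of 4684 CPM in dimmer cells.

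Nfkbia was the member with the most counts. It encodes IkB-alpha, the inhibitor that NF-kB itself induces. Nfkbia ran from 672 to 7993 CPM per cell with a median of 2003 CPM in brighter cells, against 295 to 3775 CPM with a median of 1164 CPM in dimmer cells. On the first date the medians were 2030 and 1017 CPM in brighter and dimmer cells, and on the second 1996 and 1196 CPM. On the first date the lowest brighter cell, at 1525 CPM, lay above the dimmer median. The summed level of Nfkbia was 2222 CPM in brighter and 1291 CPM in dimmer cells, a ratio of 1.72 (1.63 to 1.81), and its log2 ratio was 0.78 with all cells and 0.61 without leukocyte-marked cells. The gene lies on chromosome 12 at 55489410 to 55492647, minus strand.

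Icosl, the ligand of the T cell costimulator ICOS, lies on chromosome 10 at 78069302 to 78083913, 25691 bases from Aire. It ran from 191 to 4497 CPM per cell with a median of 1458 CPM in brighter cells, against 88.9 to 4239 CPM with a median of 843 CPM in dimmer cells. On the first date the Icosl medians were 1307 and 547 CPM in brighter and dimmer cells, and on the second 1698 and 1070 CPM. Its summed ratio was 1.70 (1.60 to 1.80). Without leukocyte-marked cells the log2 ratio of Icosl was 0.07, against 0.77 with all cells. Icam1, an adhesion molecule induced by NF-kB, had 510 CPM in brighter and 329 CPM in dimmer cells, with log2 ratios of -0.24 and 1.17 on the dates and -0.11 without leukocyte-marked cells. Cd80, a costimulatory ligand and standard marker of mature cells, had only 6.36 CPM and 5.43 CPM in brighter and dimmer cells.

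**Figure D3:**
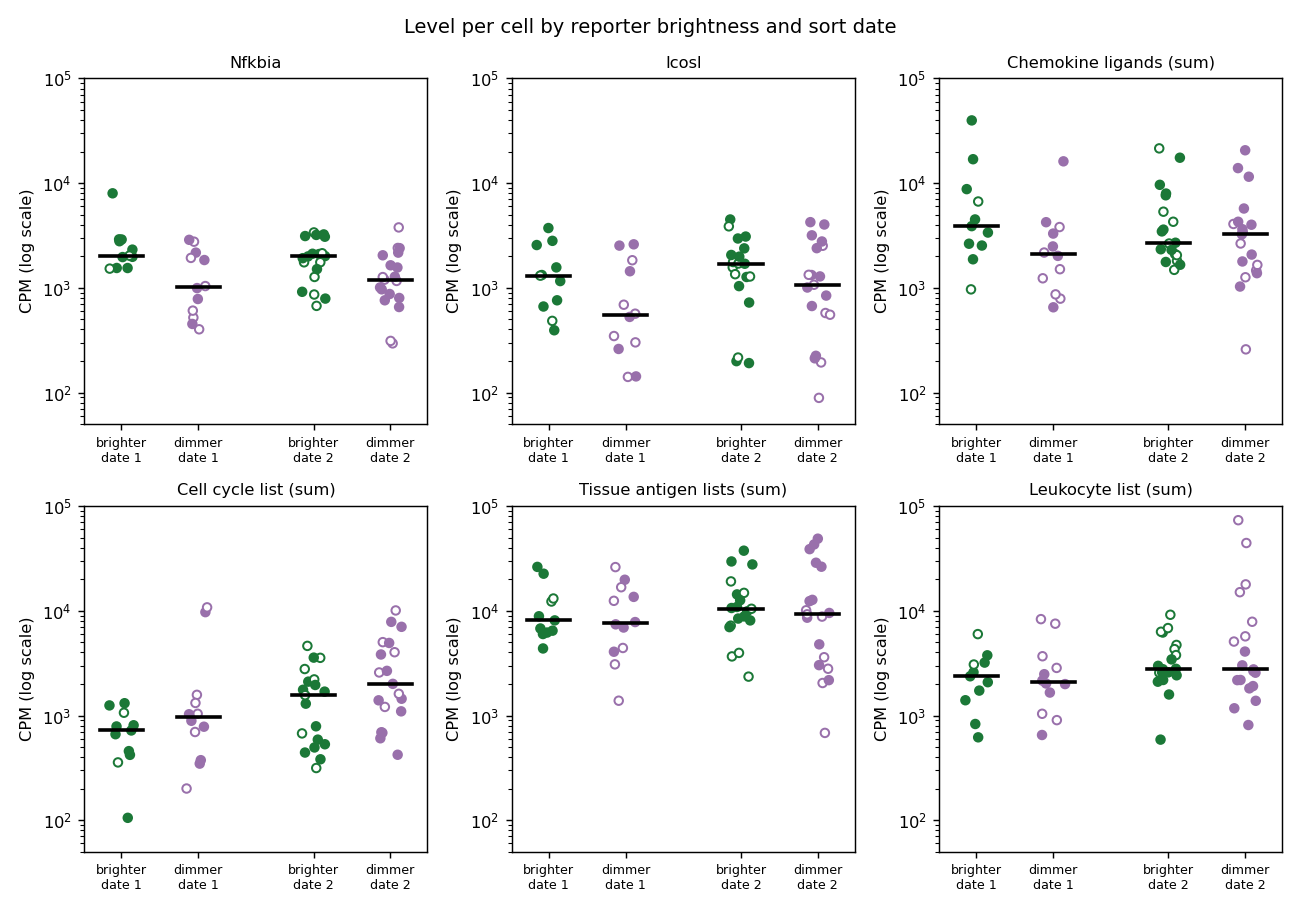
Level per cell in CPM on a log scale for Nfkbia, Icosl and 4 summed gene lists, with brighter cells left of dimmer cells on each sort date. Each point is 1 cell, open for leukocyte-marked cells, and bars are medians. Nfkbia medians are 2030 against 1017 CPM on the first date and 1996 against 1196 CPM on the second.

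The promoter windows of Nfkbia and of Cxcl1 and Cxcl2, a pair of neutrophil chemokines, are shown because these genes were higher in brighter cells on both dates and NF-kB is known to induce all of them. The sequences are from RefSeq on GRCm38.p6. One spelling of the NF-kB site, GGG, any 2 bases, then TTTCC, was searched on both strands, and its matches are in capitals. These genes and the motif were picked after their values were seen. The Nfkbia window is chr12:55492608-55492707 on the minus strand, the Cxcl1 window chr5:90891125-90891224 and the Cxcl2 window chr5:90903779-90903878, both on the plus strand.
Nfkbia: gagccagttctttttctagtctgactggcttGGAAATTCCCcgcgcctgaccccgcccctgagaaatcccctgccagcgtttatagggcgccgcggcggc
Cxcl1: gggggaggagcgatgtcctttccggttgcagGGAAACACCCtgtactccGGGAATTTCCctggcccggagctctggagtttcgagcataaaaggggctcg
Cxcl2: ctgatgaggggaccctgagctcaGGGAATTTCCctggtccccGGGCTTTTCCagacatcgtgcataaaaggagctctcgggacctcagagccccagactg
Cxcl1 and Cxcl2 each had 2 matches in the window and Nfkbia had 1. The motif was found in 535 of 32851 promoters of 300 bases, or 1.63%, and in 207 of 10993 promoters of genes with at least 20 counts, or 1.88%. Among members with enough counts and a promoter in the RefSeq table it was found in 4 of 16 chemokine genes and in 3 of 15 maturation genes. These are counts of genes with any matching promoter, while the shares above are of promoters. The maturation list was built to hold NF-kB genes. A match describes letters only and says nothing of binding in these cells.

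Chemokine ligands, with which medullary cells draw thymocytes and dendritic cells, were higher in brighter cells. Of 21 members with enough counts 16 were higher and 5 lower, with a median log2 ratio of 0.83. At the 2-fold limit, 10 were higher and 4 lower, beside 22.6% and 24.9% of all genes. On the dates, 12 of 18 members were higher on both and 1 was lower on both, beside 2299 and 1894 of 8199 genes. The summed level was 8395 CPM in brighter and 3472 CPM in dimmer cells, a ratio of 2.42 (2.35 to 2.49), with 3.10 on the first date and 1.96 on the second. Without leukocyte-marked cells it was 1.61. The difference was uneven over cells: per-cell medians of the sum were 3415 CPM in brighter and 2485 CPM in dimmer cells, a single cell held 30.6% of the brighter chemokine counts, and on the second date the medians were 2696 and 3244 CPM in brighter and dimmer cells.

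Ccl19, which attracts CCR7-bearing thymocytes, was the most abundant chemokine. It had a per-cell median of 1015 CPM (range 0 to 5615) in brighter cells and 714 CPM (20.2 to 3448) in dimmer cells. Its summed ratio was 2.03 (1.91 to 2.15), with log2 ratios of 1.04 and 0.70 on the dates. Cxcl10 and Cxcl9, ligands of CXCR3 induced by interferon, had log2 ratios of 0.67 and 1.09, and both were higher on each date. Without leukocyte-marked cells the log2 ratio of Cxcl10 was -0.25 and that of Cxcl9 0.26. Cxcl1 had 274 CPM in brighter and 43.9 CPM in dimmer cells and Cxcl2 had 383 CPM and 57.9 CPM, but their counts lay in 9 and 13 of the brighter and 10 and 12 of the dimmer cells. The highest cell of Cxcl2 read 7639 CPM among the brighter and 923 CPM among the dimmer. In cells of the ls primers alone both went the other way, with log2 ratios of -0.73 for Cxcl1 and -0.54 for Cxcl2, and the part of the primer kind was not tested. Ccl5 was set by 1 brighter cell of the first date, which held 98.2% of the brighter counts of that gene. Cxcl13, which attracts B cells, had 2 counts in brighter and 144 in dimmer cells, a ratio of 0.0244 (0.00293 to 0.0897).

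MHC class II genes had close pooled sums in brighter and dimmer cells, and the direction turned with the cells used. Of 14 members 6 were higher and 8 lower, with 0 past 2-fold higher and 2 past 2-fold lower, beside 22.6% and 24.9% of all genes. The summed level was 25007 CPM in brighter and 23449 CPM in dimmer cells, a ratio of 1.07 (1.05 to 1.08), with 1.12 on the first date and 0.953 on the second. Without leukocyte-marked cells the ratio was 0.888, with 2 members higher and 12 lower and a median log2 ratio of -0.34. H2-Ab1 had 4325 CPM in brighter and 3993 CPM in dimmer cells, H2-Aa 4203 and 4380 CPM, and the invariant chain Cd74 9866 and 8242 CPM. The log2 ratios of H2-Ab1 were 0.43 and -0.14 on the dates, and -0.26 without leukocyte-marked cells, where that of H2-Aa was -0.47. TMM factors, a scaling that shifted all log2 ratios by -0.12, turned the direction of H2-Ab1 and of the MHC class II sum. The cytometer stain for surface MHC class II had medians of 49028 and 57782.5 units in brighter and dimmer cells of the first date, and of 67245 and 61261 units on the second. MHC class I genes gave a summed ratio of 0.928, with B2m, the light chain of class I, at 5778 CPM in brighter and 6741 CPM in dimmer cells.

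Genes of the cell cycle were lower in brighter cells. Of 30 members with enough counts 24 were lower and 6 higher, and 19 were at least 2-fold lower against 24.9% of all genes. The summed level was 1339 CPM in brighter and 3508 CPM in dimmer cells, a ratio of 0.382 (0.362 to 0.402), with 0.326 and 0.462 on the dates and 0.455 without leukocyte-marked cells. Per cell the sum ran from 105 to 4625 CPM with a median of 798 CPM in brighter cells, and from 201 to 10793 CPM with a median of 1397 CPM in dimmer cells. The medians were 720 and 960 CPM in brighter and dimmer cells of the first date, and 1565 and 2007 CPM on the second. The overlap was wide, and the highest values of each date were in dimmer cells. One cell held 32.2% of the dimmer counts of this list, and without the top cell of each side the ratio was 0.435. Within primer kinds the log2 ratio of the sum was -1.59 in ls cells and 0.31 in the 8 brighter and 6 dimmer umi cells.

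Pcna, the sliding clamp of DNA polymerase, had a per-cell median of 98.8 CPM (0 to 428) in brighter cells and 195 CPM (0 to 1429) in dimmer cells. Its summed ratio was 0.274 (0.232 to 0.323), with log2 ratios of -1.25 and -2.09 on the dates. Hmgb2, a chromatin protein of dividing cells, had a per-cell median of 70.0 CPM in brighter cells and 171 CPM in dimmer cells, with log2 ratios of -2.37 and -1.43. Mki67, the proliferation marker Ki-67, which was picked after its values were seen, had 39.7 CPM in brighter and 252 CPM in dimmer cells and counts in 13 and 16 cells. Tubb5, a tubulin used by all cells, had 471 and 576 CPM. Cenpe, a motor of the kinetochore, went the other way, with 27.8 CPM in brighter and 5.43 CPM in dimmer cells, from counts in 6 and 4 cells. By GFP tertile the sum was 4237, 1855 and 1329 CPM from low to high. Neither date alone had this order, with 831, 1896 and 449 CPM on the first and 5064, 1821 and 1923 CPM on the second.

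Tissue antigens pooled over organs had a lower sum but a slightly higher per-cell median in brighter cells. Over 108 antigen genes of 10 organ lists with enough counts, 43 were higher and 65 lower, with a median log2 ratio of -0.60. Past 2-fold, 28 of 108 were higher, a share near the 22.6% of all genes, and 46 were lower, against 24.9% of all genes. Of members with at least 10 counts on the first date, 26 were higher and 40 lower there, with a median log2 ratio of -1.27. On the second date alone 49 members were higher and 45 lower, with a median log2 ratio of 0.19. The summed level was 10457 CPM in brighter and 12678 CPM in dimmer cells, a ratio of 0.825 (0.808 to 0.842), with 0.629 and 0.950 on the dates. Per-cell medians of the sum were 9383 CPM in brighter and 8808 CPM in dimmer cells, with 8102 and 7619 CPM on the first date and 10463 and 9260 CPM on the second. At 10000 counts per cell, 27 brighter cells had a median of 18 antigens (10 to 38) and 28 dimmer cells a median of 19 (2 to 31). These medians were 15.5 and 19 on the first date and 19 and 18 on the second. Genes of any kind detected at that depth had medians of 2669 (1920 to 3174) in brighter and 2809.5 (1921 to 3278) in dimmer cells. Leaving out shallower cells removed 3 brighter and 3 dimmer cells. The lowest antigen number was found in a dimmer cell and the highest in a brighter one.

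Some antigens with counts in most cells were higher in brighter cells. Syt1, a calcium sensor of synaptic vesicles, had counts in 27 brighter and 30 dimmer cells. Its per-cell median was 644 CPM (0 to 6555) in brighter and 427 CPM (0 to 1817) in dimmer cells, and its log2 ratios were 0.85 and 1.47 on the dates and 1.01 without leukocyte-marked cells. Calcb, a neuropeptide, had counts in 28 brighter and 31 dimmer cells, with per-cell medians of 630 and 520 CPM and log2 ratios of 0.62 on the first date, 0.96 on both pooled and 1.31 without leukocyte-marked cells. Lpo, a peroxidase of saliva and milk, had 371 CPM in brighter and 143 CPM in dimmer cells, from 23 and 24 cells, with log2 ratios of 1.49 and 1.05. Not all kept their size: Cdx1, a gut transcription factor, had 331 CPM in brighter and 142 CPM in dimmer cells, from 22 and 26 cells, and its log2 value was 0.16 once leukocyte-marked cells were left out.

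The liver plasma, pancreas and kallikrein lists were lower in their pooled sums. The liver plasma list had 12 of 14 members lower, 9 of them past 2-fold beside 24.9% of all genes, and a summed level of 385 CPM in brighter and 1668 CPM in dimmer cells. Its ratio was 0.231 (0.209 to 0.254), with 0.161 and 0.283 on the dates and 0.126 without leukocyte-marked cells. Apoc3, an apolipoprotein of triglyceride-rich particles, had 6.36 CPM in brighter and 475 CPM in dimmer cells from 5 and 8 cells, and its highest cell read 95.5 CPM among the brighter and 5582 CPM among the dimmer. Apoa4, another apolipoprotein, had 31.8 CPM in brighter and 470 CPM in dimmer cells, but 1 cell held 81.6% of the dimmer counts. Without the top cell of each side the liver plasma ratio was 0.291. Per cell the list had medians of 218 CPM in brighter and 209 CPM in dimmer cells, so the sums differed through few cells.

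The pancreas list had 10 of 12 members lower, 8 of them past 2-fold beside 24.9% of all genes. Its summed ratio was 0.340 (0.318 to 0.362), with 0.387 and 0.401 on the dates. In umi cells alone its log2 ratio was 1.08, and in ls cells -2.47. Pyy, a gut and islet peptide hormone, had 62.0 CPM in brighter and 732 CPM in dimmer cells from 4 and 8 cells. Ctrb1, the precursor of the digestive enzyme chymotrypsin, had 16.7 and 217 CPM from 5 and 5 cells. Reg3g, an antibacterial lectin and the most abundant member, had counts in 25 brighter and 25 dimmer cells and 675 and 1278 CPM, with log2 ratios of 0.16 and -0.78 on the dates. Kallikreins, serine proteases of salivary gland and kidney, had 11 of 14 members lower, 10 of them past 2-fold beside 24.9% of all genes. Their summed ratio was 0.262 (0.230 to 0.296), with 0.175 and 0.331 on the dates. Klk1 had 19.1 CPM in brighter and 194 CPM in dimmer cells from 6 and 6 cells. Kallikrein genes are near-identical copies, so counts of single members are uncertain. The list of salivary, lacrimal and airway glands had 6 members higher and 6 lower, with 4 and 5 past 2-fold, beside 22.6% and 24.9% of all genes. Its summed ratio was 0.560, or 0.874 without Bpifa1, an airway secretory protein and its most counted member. The median log2 ratio of this gland list was -0.30 with all cells and 0.36 without leukocyte-marked cells.

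**Figure D4:**
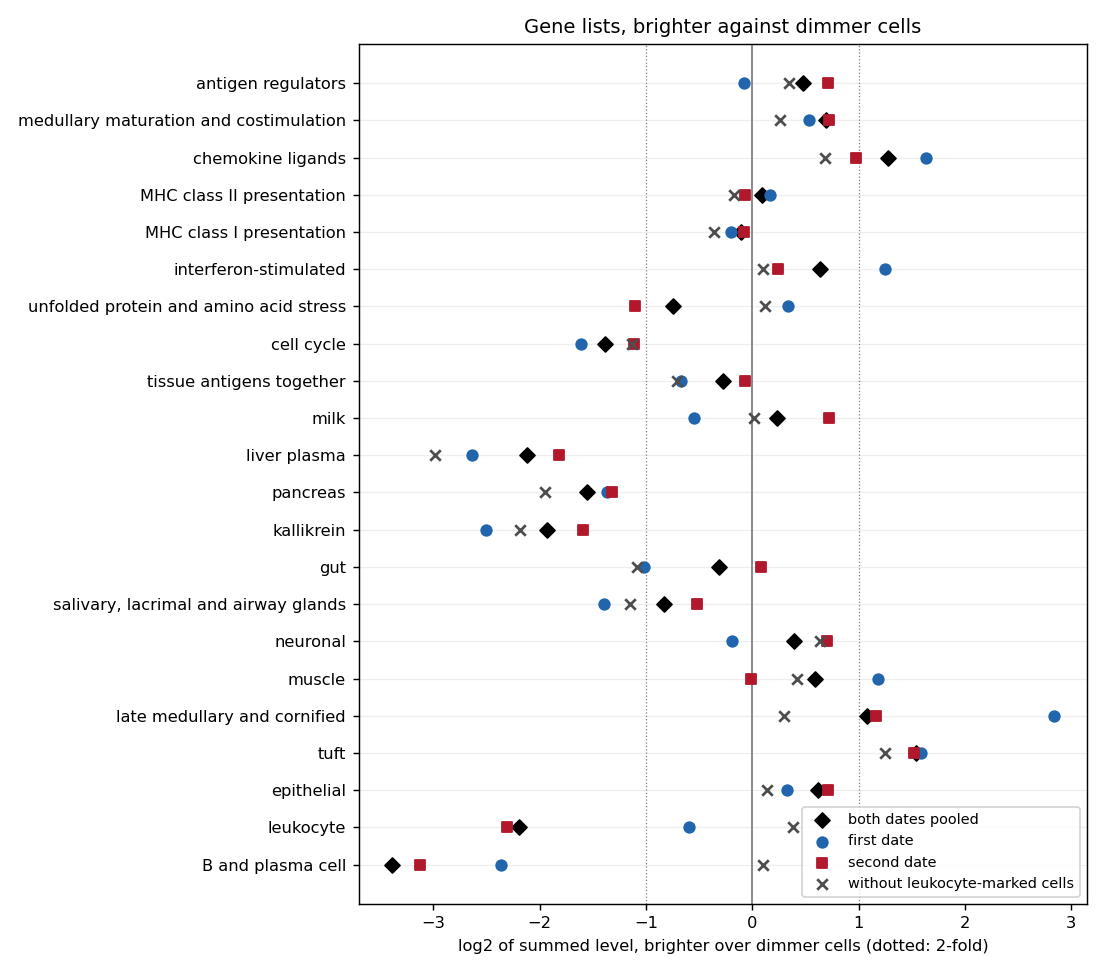
Log2 ratio of the summed level of each gene list, brighter over dimmer cells, for both dates pooled, each sort date and all cells without the leukocyte-marked ones. Dotted lines mark 2-fold. Cell cycle, liver plasma, pancreas and kallikrein lists lie left of 0 and chemokine and maturation lists right of 0 at every symbol, while the leukocyte list moves from -2.20 to 0.39 when leukocyte-marked cells are left out. The leukocyte and epithelial lists define that mark, so part of their change is fixed by it.

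Lists of other epithelial states held few counts or did not keep their size. The late medullary and cornified list had 985 CPM in brighter and 466 CPM in dimmer cells, a ratio of 2.11 (1.95 to 2.30), which became 1.23 without leukocyte-marked cells. Sprr1a, a cornified envelope protein, had 263 CPM in brighter and 152 CPM in dimmer cells, with log2 ratios of 4.51 and 0.12 on the dates and -0.14 without leukocyte-marked cells. The tuft list, genes of a chemosensory cell type, had 164 counts in brighter and 99 in dimmer cells in all, a ratio of 2.91 (2.25 to 3.77), with 3.05 and 2.87 on the dates. Its defining factor Pou2f3 had 22.3 CPM in brighter and 10.4 CPM in dimmer cells. The epithelial list had a log2 ratio of 0.62 with all cells and 0.14 without leukocyte-marked cells. This list, which includes Cdh1, enters the definition of the mark, so part of that change is fixed by it. Cdh1, the adhesion protein E-cadherin, had 671 CPM in brighter and 295 CPM in dimmer cells and log2 ratios of 1.53 and 1.17 on the dates, and 0.41 without leukocyte-marked cells.

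Tbata, a thymus-specific gene of stromal cells, had a per-cell median of 522 CPM (0 to 4584) in brighter and 317 CPM (0 to 1627) in dimmer cells, and log2 ratios of 1.32 and 0.30. Krt14, a basal keratin, had 82.8 CPM in brighter and 222 CPM in dimmer cells on the first date, and 370 CPM and 144 CPM on the second. Without leukocyte-marked cells its log2 ratio was -0.51. Krt8, a keratin of simple epithelia, had 1412 and 1029 CPM, with log2 ratios of -0.11 and 0.72.

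Markers of other cell types did not move together. The thymocyte list had a summed ratio of 1.90, with 4 members higher and 4 lower. A single cell held 53.3% of its brighter counts, and without the top cell of each side the ratio was 1.19. Per-cell medians of the thymocyte list were 106 CPM in brighter and 130 CPM in dimmer cells. For the dendritic and macrophage list the ratio was 0.858, with 0.417 and 1.38 on the dates, and for the B and plasma cell list 0.0953. The leukocyte list had 3476 CPM in brighter and 15933 CPM in dimmer cells, with 23 of 30 members lower, 17 of them past 2-fold beside 24.9% of all genes, and 7 higher. Its per-cell median was 2679 CPM (589 to 9171) in brighter and 2564 CPM (652 to 73401) in dimmer cells, so the upper end of the dimmer cells set the sums. Ptprc, which encodes the CD45 that the sort gated out and which was picked after its values were seen, had 13.5 CPM in brighter and 92.8 CPM in dimmer cells. Igj had 652 CPM and 7947 CPM, and Igkc, an antibody light chain, 364 CPM and 4428 CPM. Without leukocyte-marked cells the leukocyte list had 2891 CPM in brighter and 2211 CPM in dimmer cells. The mark is defined by this list, so part of that change is fixed by the definition. The part of these cells in the differences above was not tested beyond the values given without them.

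Stress and interferon genes gave mixed values. The interferon-stimulated list had 16 of 23 members higher and a ratio of 1.55 (1.49 to 1.62), with 2.37 and 1.18 on the dates and 1.07 without leukocyte-marked cells. Usp18, a brake on interferon signalling, had 199 CPM in brighter and 107 CPM in dimmer cells, a ratio of 1.86 (1.55 to 2.23). The unfolded protein and amino acid stress list had a ratio of 0.594 with all cells, 1.27 on the first date, 0.466 on the second and 1.09 without leukocyte-marked cells. Hsp90b1, an endoplasmic reticulum chaperone that plasma cells make in quantity, had 1849 CPM in brighter and 5617 CPM in dimmer cells, and a log2 difference of -0.10 among cells that were not leukocyte-marked. Gdf15, a stress-induced cytokine, had 376 CPM in brighter and 38.9 CPM in dimmer cells, from 11 and 12 cells, with log2 ratios of 3.17 and 2.90. Sesn2, a stress-induced regulator of mTORC1, had 29 counts in brighter and 254 in dimmer cells, a ratio of 0.201 (0.132 to 0.295), with log2 ratios of -2.79 and -2.56.

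Nuclear proteins that bind Aire were not shifted as a group. Of 25 members 15 were higher and 10 lower, and the summed ratio was 0.983 (0.947 to 1.02), with 0.931 and 0.992 on the dates. Hipk2, a kinase that phosphorylates Aire, had 52.5 CPM in brighter and 3.62 CPM in dimmer cells, from 14 and 4 cells, with log2 ratios of 4.26 and 3.04. Top1, a topoisomerase that works with Aire, had 37.4 CPM in brighter and 115 CPM in dimmer cells, with log2 ratios of -2.50 and -1.18. Ddx5, an RNA helicase and the most abundant member, had 682 and 958 CPM, with log2 ratios of 0.33 and -0.88.

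The same division of knockout GFPhi cells, 23 brighter and 25 dimmer, shared some of these differences. Aire transcripts, which remain detectable in those cells, had 1106 CPM in brighter and 663 CPM in dimmer knockout cells, a log2 ratio of 0.74 beside 0.95 in wild-type cells. The summed ratio of the cell cycle list was 0.677 in knockout and 0.382 in wild-type cells. For chemokines it was 0.960 in knockout and 2.42 in wild-type cells, for maturation genes 1.12 and 1.62, for the liver plasma list 4.47 and 0.231, and for the pancreas list 1.73 and 0.340. Genes leading in wild-type cells went both ways in knockout cells. Among those named as higher, knockout log2 ratios were 2.25 for Bag6 and 0.54 for Map3k14, but -1.17 for Erbb2 and -2.74 for Chst1. Among those named as lower, they were -4.02 for Nckap1l and -1.15 for Rpap1, but 5.14 for Hcfc2 and 2.79 for Tomm5. Whether the ratios differ between genotypes was not tested, since each side is 1 sample. In wild-type GFPlo cells, chemokines had 5048 CPM, the cell cycle list 3644 CPM and tissue antigens together 8484 CPM. Of the genes named as higher, Tmem11 had 121 CPM, Map3k14 41.6 CPM and Ugdh 4.87 CPM in those GFPlo cells.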

How the data were processed

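Expression was read from the deposited counts, 1 integer for each gene in each cell per the file headers, and 0 columns were left unused. Per the submitters' processing notes, the authors used TopHat, TopHat2, Picard 1.79, SAMtools 0.1.19 and HTSeq on the mouse build mm10. Whether reads were collapsed by molecular identifier is not stated. A deposited table of the cells holds the cytometer intensity per well, with compensation not stated, the reads per cell and the GFP transcript count. Its ratio of GFP transcript to reads, made by the authors, was not used, and the GFP transcript was divided by unique reads anew.

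Counts were summed over brighter and over dimmer cells and given as CPM. Ratios carry exact 95% intervals (conditional binomial) that cover counting error only. Log2 ratios used a prior of 0.5 counts. Genes needed at least 20 counts in the 61 cells. The edgeR test usual for counts was not run, since no animal is named and each side is 1 sample; edgeR 4.0.16 gave TMM factors of 1.044 and 0.958 for brighter and dimmer cells as an alternative. Scripts were tested on simulated data and ran in R 4.3.3 and in Python 3.11.15, with scipy 1.17.1, pandas 2.3.3 and numpy 2.4.6. Detection was compared after thinning to 10000 counts (seed 1). Alternatives were other splits of GFP, single dates, primer kinds, left-out pools and cells, other filters and other scalings, and 3 of them were added after seeing the data.

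Named genes are Aire, Csn2, Fezf2, H2-Aa, H2-Ab1, Cd74, Cd80, Epcam, Krt5, Krt14 and Krt8, the 12 highest and 12 lowest genes by the interval bound nearest to 1 detected in 8 or more cells of their higher side, with 30% of its counts or less in 1 cell, and the same direction on both dates, in per-cell means and without leukocyte-marked cells, and from every list the 3 most counted members and the extremes of the ratio. Ribosomal protein genes, spike-ins, pseudogenes and unnamed gene models could not be picked. Cxcl1, Cxcl2, Mki67 and Ptprc fall outside this rule and were picked after their values were seen. The members and lists were chosen with earlier results of these data known.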

Additional observations from a re-analysis of the deposited data

Results flagged for a closer look

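In each of these results the sort dates went opposite ways by at least 2-fold, and the difference was not tested. The log2 ratio of Ccl5 was 4.13 on the first date and -3.40 on the second, a difference (second minus first) of -7.53, with 98.2% of its brighter counts in 1 cell. That of Krt14 was -1.41 and 1.36, a difference of 2.78. The log2 ratio of the summed male reproductive antigen list was -1.14 and 1.14, a difference of 2.28.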

How the results depend on the processing

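Log2 ratios of brighter over dimmer cells were recomputed with other splits, cells, pools and scalings. Aire was higher in brighter cells under every alternative run, from 0.31 to 1.72 with 0.95 as reported. No alternative left out leukocyte-marked cells on a single date, so whether Aire was higher in that setting was not tested. On the first date the 15 cells without the mark had a Spearman correlation of Aire with GFP intensity of -0.07. Csn2 (0.31), Fezf2 (0.17) and the GFP transcript (-0.08) changed direction under some alternatives. Values of these genes that moved by more than their counting interval, and changes of direction of other genes and lists past 2-fold, are as follows. Upper against lower GFP tertiles gave 1.72 for Aire, 1.01 for Csn2, 0.81 for Fezf2, -2.64 for Ccl5 and 0.65 for the GFP transcript. The first date alone gave 0.41 for Aire, -0.57 for Csn2, -0.28 for Fezf2 and -1.17 for the GFP transcript. The second date alone gave 1.23 for Aire, 0.92 for Csn2, -3.40 for Ccl5 and 0.31 for the GFP transcript. Without leukocyte-marked cells the values were 0.31 for Aire, 0.21 for Csn2, 0.37 for Fezf2, 0.17 for Igj, 0.48 for Igkc, 0.39 for the leukocyte list, 0.10 for the B and plasma cell list and -0.34 for the GFP transcript. The mark is defined by the leukocyte list, with Igj and Igkc, and the epithelial list, with Epcam, Krt8 and Krt14. Part of their change is therefore fixed by the definition. The ls primers alone gave -0.12 for Csn2, 0.48 for Fezf2, -0.73 for Cxcl1, -0.54 for Cxcl2 and -0.19 for the GFP transcript. The umi primers alone gave 1.32 for Csn2, 0.97 for Fezf2, 0.98 for Pcna, 0.36 for Mki67, 0.072 for Ctrb1, -0.92 for the late medullary and cornified list, 1.08 for the pancreas list, 0.31 for the cell cycle list, 1.08 for the GFP transcript and 1.11 for the median of tissue antigens. Without the 3 dimmer cells with over 1000 Igj counts, left out after seeing the data, the values were 0.55 for Aire, -0.14 for Csn2, -0.19 for Fezf2, 0.23 for Igkc and 1.40 for Ptprc. The mean of per-cell CPM gave 0.41 for Aire, 0.72 for Csn2, -0.012 for Fezf2 and -0.12 for Ccl5. Without the top cell of each side, an alternative added after seeing the data, the values were 1.09 for Aire and -2.47 for Ccl5. TMM factors gave 0.18 for Csn2 and 0.046 for Fezf2. Weighting the dates by the Mantel-Haenszel method, also added later, gave 0.080 for Csn2 and -0.11 for Fezf2. TMM factors, which shifted all ratios by -0.12, also turned the direction of H2-Ab1 and of the MHC class II, immature medullary and immediate early lists. Genes and lists within 2-fold changed direction more often, 14 of 48 without leukocyte-marked cells, 16 of 45 on the first date alone, 10 of 48 on the second, 12 of 48 without the Igj-rich cells and 11 of 47 with umi primers alone. Without leukocyte-marked cells they included Epcam (-0.48), Krt14 (-0.51), Cd80 (-0.35), H2-Ab1 (-0.26), Cxcl10 (-0.25), Sprr1a (-0.14), Icam1 (-0.11), the MHC class II list (-0.17) and the unfolded protein list (0.12). On the first date they included Krt14 (-1.41), Icam1 (-0.24) and Krt8 (-0.11). Leaving out 1 library pool gave 0.079, 0.16, 0.81, 0.62, 0.11, 0.45, 0.040, 0.21 for Csn2 without pool 2, 3, 5, 6, 8, 10, 11, 12; -0.041, 0.36, -0.053 for Fezf2 without pool 5, 6, 11; -3.66 for Ccl5 without pool 5; 0.27, -0.15, -0.21, -0.38, -0.48, 0.40 for the GFP transcript without pool 5, 6, 8, 10, 11, 12; 0.63 for Aire without pool 11. The number of genes past 2-fold lower was 2920 as reported, 1942 with at least 50 counts and 931 with umi primers alone. The causes were not tested. No paired analysis was possible because replicate numbers only name cells and no animal is named. Depth limits all genes found in few cells, since intervals cover counting error and not the spread between cells or animals.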
